A study of Fragaria vesca with 8 samples.

Results

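A set of 116 genes of *Fragaria vesca*, the diploid woodland strawberry, was strongly raised in fruit by each of 2 transcription factors, FvVND4c and FvMYB46, when these were overexpressed separately. The members were chosen by a rule on measured values. Reads of a gene were scaled to the total of a library, as counts per 1000000 (CPM). L_V was the log2 of the mean CPM with FvVND4c overexpression plus 0.5 over the mean CPM of its empty vector plus 0.5. L_M was the same ratio for FvMYB46 overexpression and its own empty vector. A gene entered the set with L_V and L_M of at least 2, which is 4-fold on this scale, and with more than 3 counts in total over the 4 empty-vector libraries. Of 34009 genes, 303 reached the threshold for FvVND4c, 685 reached it for FvMYB46 and 129 reached both. Of these 129, 12 were left out for too few empty-vector counts and 1 for its position, since the rule excludes genes starting at 1.9 to 2.1 Mb of chromosome 5 or at 22.6 to 22.9 Mb of chromosome 4. The 116 members were 0.341% of all genes. They made up 38.3% of the genes at the threshold for FvVND4c and 16.9% of those for FvMYB46, which were counted before these exclusions.

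VND proteins are NAC transcription factors that switch on secondary cell wall formation in water-conducting xylem cells. MYB46 is a MYB transcription factor that acts downstream of such NAC proteins in *Arabidopsis thaliana*, where both levels of regulator activate genes for cellulose, xylan and lignin synthesis. Lignin is made through the phenylpropanoid pathway, which also supplies the precursors of flavonoids and anthocyanins. In the fleshy fruit of strawberry, walls of this kind are normally restricted to vascular strands and achenes. In the deposited counts a gene has only its annotation identifier. No table used here pairs these identifiers with gene names or functions, as 0 of 34009 matched the gene table at hand. The members are therefore described by identifier, position and level, with no role given, and neither wall, lignin and flavonoid genes nor markers of fruit tissue could be counted among them.

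The fruits came from the white-fruited line "Yellow Wonder" and were injected with *Agrobacterium tumefaciens* at the turn from green to white. The bacteria carried FvVND4c or FvMYB46 behind the constitutive CaMV 35S promoter, or an empty vector that served as control in each experiment separately. Expression was thus transient in plants that were not otherwise transformed, and the controls had been infiltrated too. Samples were taken 7 days after infiltration from at least 5 fruits per treatment. There were 2 libraries in each of 4 groups, namely FvVND4c overexpression (FvVND4c OX), its empty vector (FvVND4c EV), FvMYB46 overexpression (FvMYB46 OX) and its empty vector (FvMYB46 EV). The methods call the replicates biological, but how fruits were pooled into libraries was not stated, and all p-values measure the spread between these libraries. In whole fruit, a higher level in each cell and a larger number of expressing cells cannot be told apart. Whether a member is one of the overexpressed genes itself could not be checked. The study reports higher FvMYB46 expression upon FvVND4c overexpression, so the FvMYB46 gene, with transcripts of its construct, could be among the members.

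The libraries held 9765362 to 12845942 counts and had counts in 21923 to 23336 genes, so 1 count corresponded to 0.0778 to 0.102 CPM. The 2 libraries of FvMYB46 EV stood apart from each other in the members. Only some of the results that rest on them are also given without each. The fold changes L_V and L_M use plain totals. With TMM-scaled totals the median L_V of all 18766 genes tested moved from -0.12 to -0.01, a shift of 0.10, and the median L_M moved from 0.01 to 0.00. On that scaling 124 genes met the rule, all 116 members among them.

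The members went from a small to a considerable share of the fruit transcriptome, and the share reached was nearly the same with either construct. They took 0.0738% and 0.0716% of the counts in the FvVND4c EV libraries and 1.34% and 1.30% in the FvVND4c OX libraries. In the FvMYB46 experiment they took 0.0853% and 0.0541% with the empty vector and 1.27% and 1.31% with FvMYB46. The rise itself follows from the rule. The share reached was not fixed by it, but the same floor for both constructs favours similar values. Genes raised by only 1 construct are left out, with 174 at the threshold for FvVND4c only and 556 for FvMYB46 only. The median level of a member was 1.62 and 1.26 CPM in the FvVND4c EV libraries, 39.4 and 37.0 CPM in the FvVND4c OX libraries, 1.67 and 0.778 CPM in the FvMYB46 EV libraries and 40.2 and 39.1 CPM in the FvMYB46 OX libraries.

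**Figure D1:**
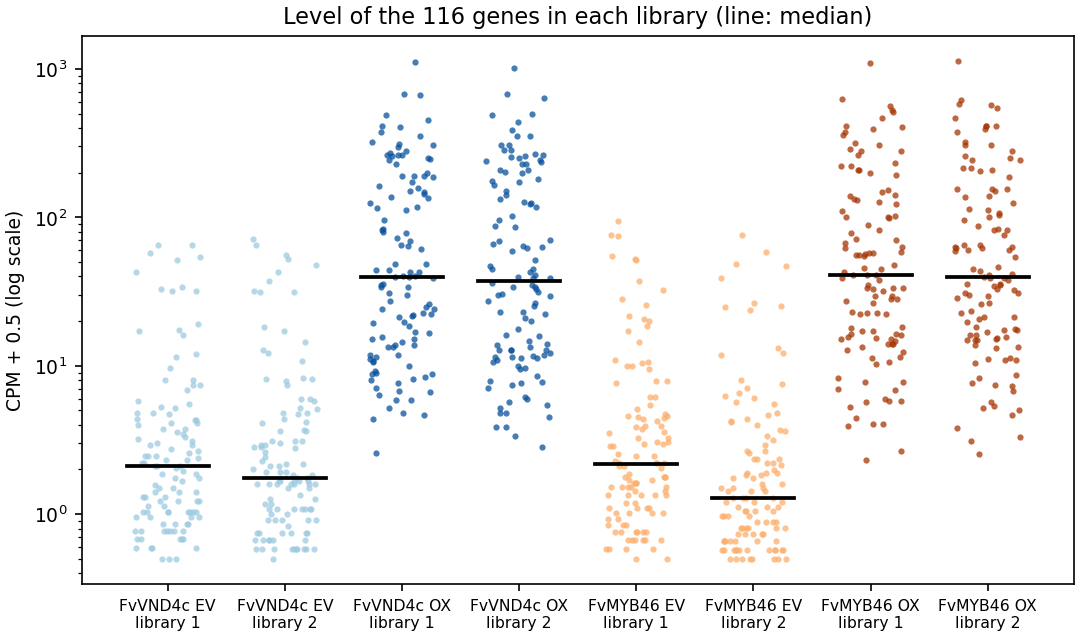
Level of each of the 116 genes (points, CPM plus 0.5 on a log scale) in the 8 libraries, with the median of a library as a line. The medians lie near 40 CPM in all 4 overexpression libraries and between 0.778 and 1.67 CPM in the empty-vector libraries, lowest in library 2 of FvMYB46 EV.

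Without construct, the members differed widely among themselves. With the empty vector, 46 members were under 1 CPM and 16 were over 10 CPM in the FvVND4c experiment, and 52 and 16 in the FvMYB46 experiment. No member was without a count in either empty-vector group, although 8 members had only 1 to 3 counts in FvVND4c EV and 9 in FvMYB46 EV. Upon overexpression, 40 members exceeded 100 CPM with FvVND4c and 35 with FvMYB46, while 21 and 16 stayed under 10 CPM. The 10 members with most counts held 39.4% of the members' CPM with FvVND4c and 42.2% with FvMYB46, and 7 members were among these 10 in both cases.

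The most strongly raised members by the smaller of L_V and L_M all rose from a few CPM or less to over 100 CPM with both constructs. FvH4_4g19370, on chromosome 4 from 23039926 to 23042026, stood at 2.43 and 2.10 CPM in the FvVND4c EV libraries and at 449 and 497 CPM in FvVND4c OX. In the FvMYB46 experiment it stood at 3.94 and 0.545 CPM with the empty vector and at 564 and 576 CPM with FvMYB46. Its L_V was 7.42 and its L_M 7.70, the largest smaller value in the set, and the groups were far apart in both experiments. FvH4_1g00670, on chromosome 1 from 354453 to 358856, went from 3.07 and 1.68 to 485 and 487 CPM with FvVND4c and from 4.20 and 0.545 to 390 and 411 CPM with FvMYB46. In both genes, library 2 of FvMYB46 EV was the lowest of the 4 empty-vector libraries. Without it L_M was 7.01 for FvH4_4g19370 and 6.42 for FvH4_1g00670, and without library 1 it was 9.09 and 8.58.

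FvH4_3g31910, on chromosome 3 from 26961131 to 26965887, rose from 0.271 and 0.252 to 144 and 125 CPM with FvVND4c and from 0.514 and 0.0778 to 110 and 111 CPM with FvMYB46. FvH4_6g15450, on chromosome 6 from 9601180 to 9606016, rose from 0.180 and 0.252 to 125 and 132 CPM and from 0.856 and 0.311 to 141 and 155 CPM. Both were nearly silent with the empty vector and reached similar levels with either construct. FvH4_3g34340, on chromosome 3 from 29823780 to 29826764, went from 1.62 and 1.09 to 264 and 241 CPM with FvVND4c and from 1.11 and 0.311 to 231 and 249 CPM with FvMYB46. FvH4_4g22570, on chromosome 4 from 25341993 to 25345175, reached 305 and 283 CPM with FvVND4c from 1.98 and 1.09 CPM, but 132 and 137 CPM with FvMYB46 from 1.03 and 0.701 CPM. Although its level with FvVND4c was the higher, its empty-vector level was too, and the difference between its responses did not pass the test (log2 difference -0.43, standard error 0.37, adjusted p = 0.494 from edgeR). In none of these 6 genes did that difference pass.

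The most abundant members included genes with much smaller folds. FvH4_2g39620, on chromosome 2 from 28410634 to 28412322, had the highest mean CPM over the 4 overexpression libraries and the highest level per length with each construct, with 668 and 678 CPM in FvVND4c OX and 1099 and 1126 CPM in FvMYB46 OX. Its span is 1689 bp, which gave 399 and 659 CPM per kb of gene span, introns included. The next per length was FvH4_1g16440, with 325 and 360 CPM per kb, named after its values were seen. Unlike the genes with the largest rises, FvH4_2g39620 was already well expressed with the empty vector, at 51.3 and 46.9 CPM in the FvVND4c experiment and 54.3 and 24.4 CPM in the FvMYB46 experiment. FvH4_3g40570, on chromosome 3 from 34210255 to 34214051, was also well expressed with the empty vector, with 56.8 and 55.1 CPM in FvVND4c EV and 677 and 639 CPM in FvVND4c OX. It held 93.2 and 25.9 CPM in FvMYB46 EV and 621 and 619 CPM in FvMYB46 OX. FvH4_3g38140, on chromosome 3 from 32569757 to 32573695, was low with the empty vector, at 4.78 and 4.29 CPM and at 9.42 and 2.65 CPM, and reached 1113 and 1012 CPM with FvVND4c, more than FvH4_2g39620 in these libraries, and 524 and 544 CPM with FvMYB46. This was 270 against 136 CPM per kb, but the difference between the responses did not pass the test (log2 difference -1.49, standard error 0.48, adjusted p = 0.0600 from edgeR). The members' CPM per kb with FvVND4c and with FvMYB46 had a Spearman correlation of 0.73 over the 116 genes, a description in which each gene enters both sides with the same span.

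**Figure D2:**
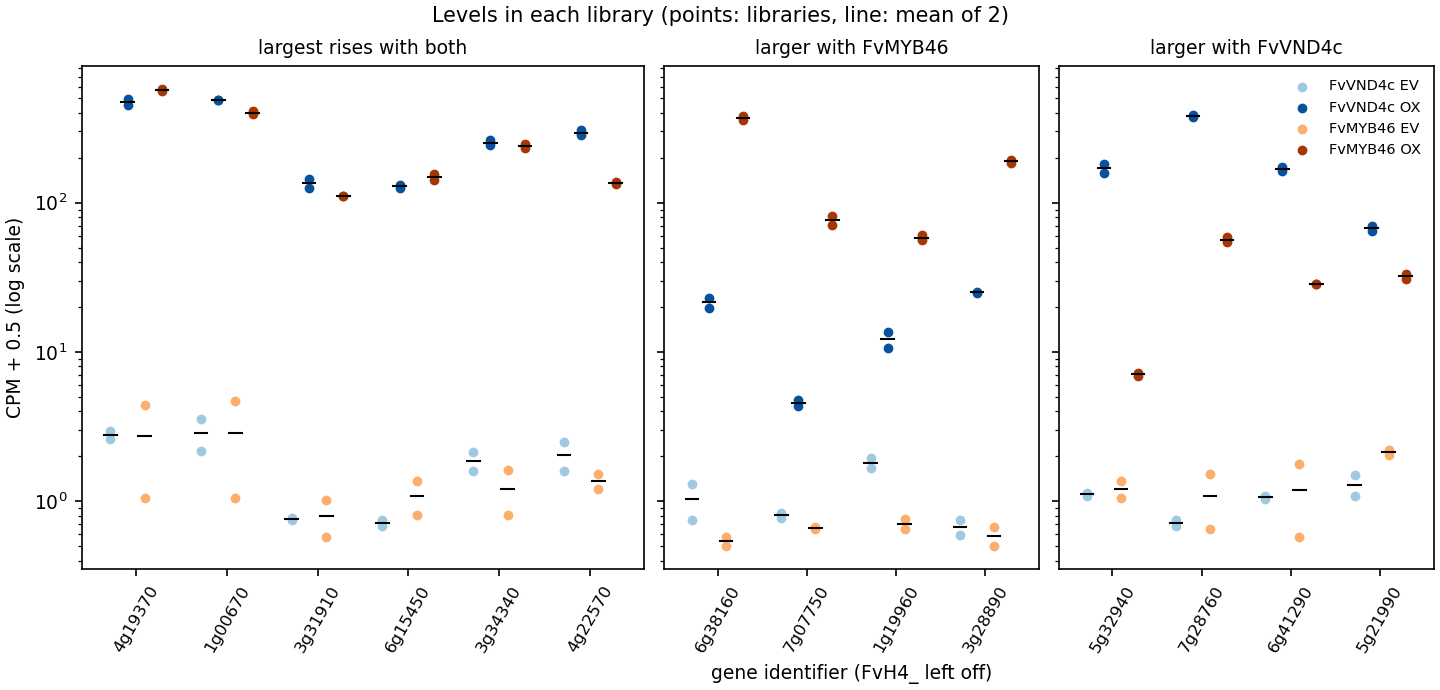
Levels (CPM plus 0.5, log scale) in each library of the 6 genes raised most by both constructs and of the 4 genes with the largest difference between the responses in each direction, with points for libraries and a line for the mean of 2. In the first panel the dark points of both overexpression groups lie at over 100 CPM, whereas in the other panels the means of these groups lie more than 2-fold apart.

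The members rose to similar extents with both constructs when taken as a set, while single genes could differ by a large factor. L_V ranged from 2.00 to 9.05 with a median of 3.85, and L_M from 2.02 to 9.42 with a median of 3.94. L_V was the larger in 59 members and L_M in 57, and the difference was below 1 in 67. Both values reached at least 3 in 61 members, at least 5 in 21 and at least 7 in 5. Over the 116 members Pearson's r between L_V and L_M was 0.58 and Spearman's rho was 0.55. These values describe a set cut at the same threshold on both axes, which favours similar medians, and they carry no test. The 2 experiments share no library, but each gene has the same length in both. All 116 members passed edgeR's filter on low counts. In each comparison all were also called higher (fitted log2 value over 1, Benjamini-Hochberg adjusted p below 0.05), as were 4.17% of all genes tested with FvVND4c and 10.1% with FvMYB46. The rule used these same comparisons, so nothing is read from that count.

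**Figure D3:**
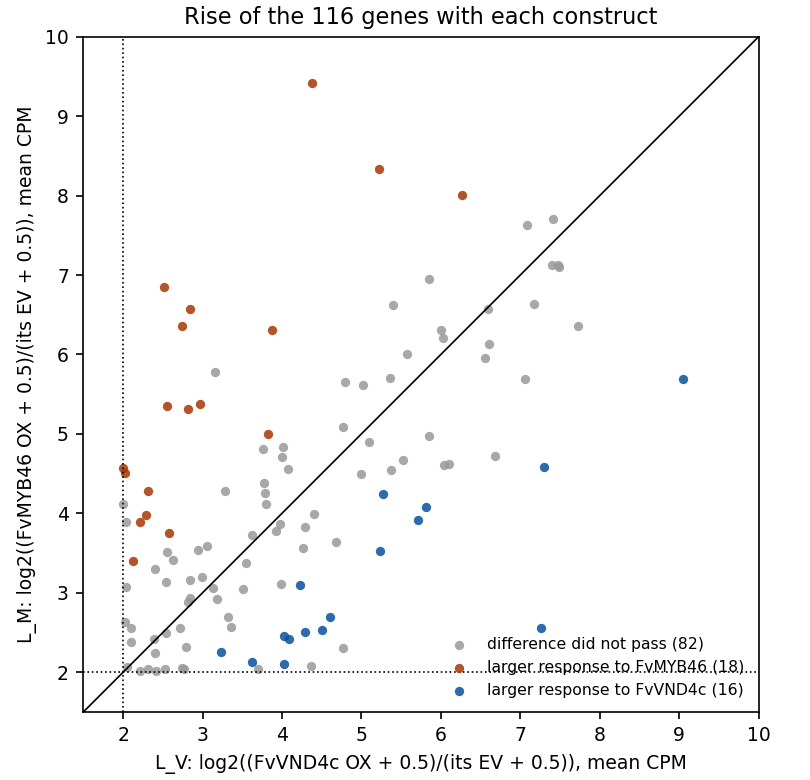
L_V against L_M (log2 scale) for the 116 genes, with the thresholds of 2 as dotted lines and equality as a solid line. Colours mark the 18 genes with a larger response to FvMYB46, the 16 with a larger response to FvVND4c and the 82 in which the difference did not pass the test.

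Whether a gene responded more to FvMYB46 or to FvVND4c was tested as the difference of the responses, each against its own empty vector, with edgeR in 1 fit of the 8 libraries and with the same thresholds. The rule puts a floor under both responses and does not set which is larger, although the test uses the same libraries. A member near the floor for 1 construct can differ only towards the other. Of the 116 members, 18 (15.5%) responded more to FvMYB46, against 5.86% of all genes tested, and 16 (13.8%) responded more to FvVND4c, against 3.77%. Members were chosen for large responses in these libraries, so the larger shares are not read as a trait of the set. In the other 82 members the difference did not pass, which does not show that their responses were alike, as their fitted log2 differences ran from -3.20 to 2.89. These counts depended on single libraries. Without library 1 of FvMYB46 EV they were 30 and 6, without library 2 of FvMYB46 EV 14 and 24, and without library 2 of FvVND4c EV 8 and 8. Without library 1 or 2 of FvMYB46 OX they were 11 and 11 in either case.

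The 18 members with a larger response to FvMYB46 had a median of 12.8 CPM with FvVND4c and 60.7 CPM with FvMYB46, and in 17 of them the level with FvMYB46 was the higher. FvH4_6g38160, on chromosome 6 from 30196094 to 30197635, differed most, but whether its reads include transcripts of a construct could not be checked. It had 0.812 and 0.252 CPM in FvVND4c EV, 19.4 and 22.6 CPM in FvVND4c OX, 0 and 0.0778 CPM in FvMYB46 EV, and 359 and 378 CPM in FvMYB46 OX. All 4 overexpression libraries lay above all 4 empty-vector libraries, and the FvMYB46 OX level was 17.5 times that of FvVND4c OX. The log2 difference of the responses was 7.38 (standard error 0.95, adjusted p = 4.84e-04 from edgeR). Since FvMYB46 EV held only 1 count of this gene, the size of that value depends on the prior count of the fit. It was 6.38 without library 1 of FvVND4c EV and 9.61 without library 2 of FvMYB46 EV, which leaves no count in that group. The CPM ratio of FvMYB46 OX to its empty vector was 9029, and its 95% exact binomial limits, which reflect only counting error, were 1620 and 356677.

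FvH4_7g07750, on chromosome 7 from 7643077 to 7645694, rose from 0.271 and 0.337 to only 3.87 and 4.30 CPM with FvVND4c. With FvMYB46 it went from 0.171 and 0.156 to 70.6 and 81.0 CPM, and the log2 difference was 4.95 (standard error 0.70, adjusted p = 8.91e-04 from edgeR). FvH4_1g19960, on chromosome 1 from 12078791 to 12080966, rose from 1.44 and 1.18 to 10.1 and 13.2 CPM with FvVND4c and from 0.257 and 0.156 to 55.3 and 60.04 CPM with FvMYB46. Its log2 difference of 4.81 (standard error 0.50, adjusted p = 1.25e-04 from edgeR) came from both ends, as its overexpression level was higher and its empty-vector level lower in the FvMYB46 experiment. FvH4_3g28890, on chromosome 3 from 21905795 to 21908844, rose strongly with both constructs. It stood at 0.0902 and 0.252 CPM in FvVND4c EV and 24.4 and 24.8 CPM in FvVND4c OX, and at 0.171 and 0 CPM in FvMYB46 EV and 192 and 185 CPM in FvMYB46 OX. FvMYB46 EV held 2 counts of it, and the ratio in that experiment was 2310 with 95% exact binomial limits of 639 and 19078. The log2 difference was 3.82 (standard error 1.06, adjusted p = 0.0353 from edgeR), and this call was lost without either library of FvMYB46 OX or of FvVND4c EV, without library 2 of FvMYB46 EV or of FvVND4c OX, and with no filter on low counts. Its size moved as well, to 2.86 without library 2 of FvMYB46 EV, 2.93 without library 2 of FvVND4c EV, and 6.91 (adjusted p = 0.00666 from edgeR) without library 1 of FvMYB46 EV, which leaves no count in that group.

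The 16 members with a larger response to FvVND4c had a median of 71.6 CPM with FvVND4c and 28.9 CPM with FvMYB46, and in all 16 the level with FvVND4c was more than 2 times the other. FvH4_5g32940, on chromosome 5 from 23782026 to 23783127, had 0.631 and 0.589 CPM in FvVND4c EV and 158 and 182 CPM in FvVND4c OX. It had 0.856 and 0.545 CPM in FvMYB46 EV and only 6.38 and 6.78 CPM in FvMYB46 OX. The empty-vector libraries overlapped between the experiments while the overexpression libraries were far apart, with a log2 difference of -5.00 (standard error 0.49, adjusted p = 7.88e-05 from edgeR). FvH4_7g28760, on chromosome 7 from 21281275 to 21282859, had the largest L_V of the set, 9.05. It rose from 0.180 and 0.252 to 375 and 384 CPM with FvVND4c and from 1.03 and 0.156 to 58.3 and 53.8 CPM with FvMYB46. The log2 difference was -4.23 (standard error 0.78, adjusted p = 0.00458 from edgeR), and it was -2.46 with adjusted p = 0.184 without library 1 of FvMYB46 EV.

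FvH4_6g41290, on chromosome 6 from 32505721 to 32507128, rose from 0.541 and 0.589 to 163 and 172 CPM with FvVND4c and from 1.28 and 0.0778 to 27.8 and 27.9 CPM with FvMYB46. The log2 difference of -2.91 (standard error 0.79, adjusted p = 0.0326 from edgeR) was not stable. It was -0.04 without library 1 of FvMYB46 EV, which leaves a single count in that group. The call was also lost with DESeq2 (adjusted p = 0.104), with no filter on low counts, without library 2 of FvVND4c OX and without either library of FvVND4c EV or FvMYB46 OX. FvH4_5g21990 is a short gene of 393 bp on chromosome 5, from 13368135 to 13368527. It rose from 0.992 and 0.589 to 64.2 and 69.7 CPM with FvVND4c and from 1.54 and 1.71 to 32.8 and 30.4 CPM with FvMYB46. Its log2 difference was -2.25 (standard error 0.35, adjusted p = 0.00144 from edgeR) and remained past the threshold in all alternatives run.

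The levels with the empty vector were compared between the experiments by the same test. These levels enter L_V and L_M, so the comparison is not independent of the rule, and its shares are not read as a trait of the set. In FvMYB46 EV, 1 member (0.862%) was higher and 4 members (3.45%) were lower than in FvVND4c EV, against 0.618% and 1.62% of all genes tested. FvH4_6g39640, a gene of 299 bp on chromosome 6 from 31292824 to 31293122, was higher, with 3.85 and 3.74 CPM against 1.26 and 1.18 CPM (log2 difference 1.68, standard error 0.26, adjusted p = 0.00412 from edgeR). The call was lost without library 2 of FvVND4c EV (adjusted p = 0.0611). The gene reached 10.6 and 12.3 CPM with FvVND4c and 21.9 and 20.01 CPM with FvMYB46. FvH4_1g19960 was lower by -2.56 on the log2 scale (standard error 0.50, adjusted p = 0.0164 from edgeR), and this call was lost without either library of FvVND4c EV, without library 2 of FvMYB46 EV, and with the 4 empty-vector libraries fitted alone. FvH4_5g32180, on chromosome 5 from 23234588 to 23235710, was lower as well, with 0.599 and 0.778 CPM against 3.79 and 3.87 CPM (log2 difference -2.39, standard error 0.33, adjusted p = 0.00234 from edgeR). It was the only member with a larger response to FvMYB46 whose level was lower with FvMYB46, at 16.7 and 14.3 CPM against 21.9 and 28.8 CPM. The other two lower members, FvH4_5g37700 and FvH4_6g12390, had log2 differences of -1.64 (adjusted p = 0.0220 from edgeR) and -1.38 (adjusted p = 0.00832 from edgeR) and are named after their values were seen. The number of lower members was 21 without library 1 of FvMYB46 EV, 2 without library 1 and 1 without library 2 of FvVND4c EV, and 1 with the 4 empty-vector libraries fitted alone. The number of higher members was 7 without library 2 of FvMYB46 EV and 0 without library 2 of FvVND4c EV.

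The members varied together between the 2 FvMYB46 EV libraries, a difference that the rule did not use, since it takes only their mean. In library 1, 94 of 116 members (81.0%) were higher than in library 2, compared with 59.4% of all genes tested. A difference of over 2-fold, on CPM plus 0.5, was found in 33 members (28.4%), all higher in library 1. Of all genes tested, 4.16% were over 2-fold higher in library 1 and 0.117% over 2-fold lower, so this direction was shared. Of the 73 members with at least 20 counts over both libraries, 31 (42.5%) differed by over 2-fold in CPM with no constant added, against 6.42% of the genes tested with as many counts. The median log2 ratio of library 1 to library 2 was 0.57 for the members and 0.08 for all genes tested. In the other groups the members' median log2 ratio was 0.06 for FvVND4c EV, 0.08 for FvVND4c OX and -0.03 for FvMYB46 OX, where 1, 2 and 0 members differed by over 2-fold. Without the 5 members with most empty-vector counts, the remaining 111 still took 0.0505% of library 1 and 0.0309% of library 2. Only 2 libraries stand behind this, so it describes them and has no test.

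**Figure D4:**
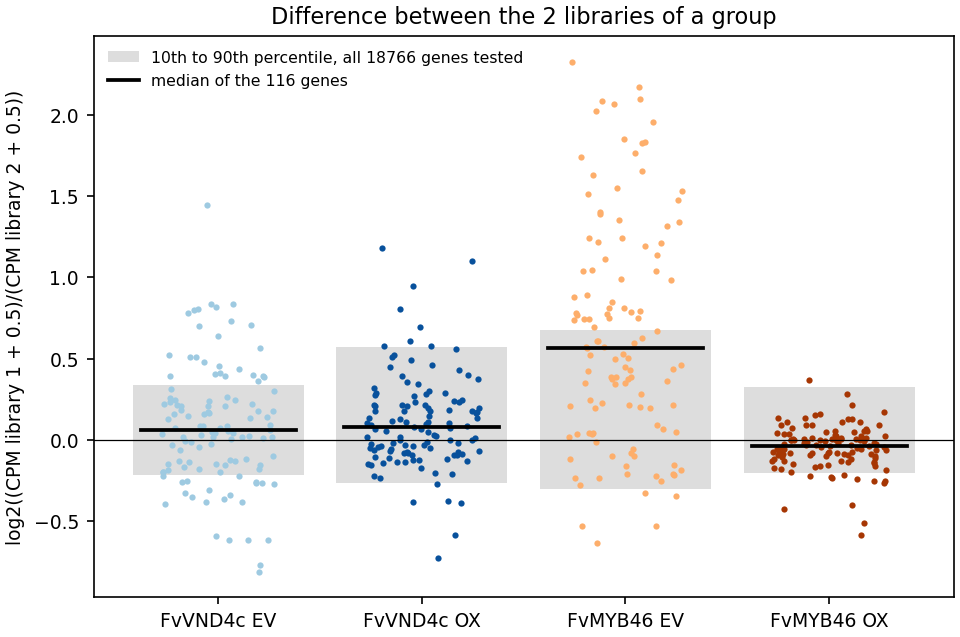
Log2 ratio of library 1 to library 2 (CPM plus 0.5) of each of the 116 genes in each group, with the members' median as a line and the 10th to 90th percentile of all 18766 genes tested as a grey band. In FvMYB46 EV the members' median of 0.57 lies near the top of the band, while in the other groups it lies between -0.03 and 0.08.

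This difference was larger in the genes that FvVND4c raised most, in an experiment that shares no library with these. Among the same 73 members, those with L_V of at least 5 had a median ratio of CPM plus 0.5 of 2.64 between library 1 and library 2 (17 genes). The ratio was 1.72 for L_V from 3 to 5 (25 genes) and 1.31 for L_V under 3 (31 genes). Over 2-fold differences were found in 12, 9 and 5 of these genes. Across the 73 genes Pearson's r between this log2 ratio and L_V was 0.54 and Spearman's rho was 0.45. This is a description over genes of 1 pair of libraries, and genes are not independent replicates. The 73 genes were also kept by their counts in these same 2 libraries, so a gene of low level could enter through its counts in library 1. How far this choice shaped the trend was not tested. FvH4_4g19370 and FvH4_1g00670, with L_V of 7.42 and 7.40, were both more than 3 times higher in library 1, as was FvH4_3g40570 with a lower L_V of 3.54. Whether the fruits of these libraries differed in stage, tissue or infiltration was not tested.

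**Figure D5:**
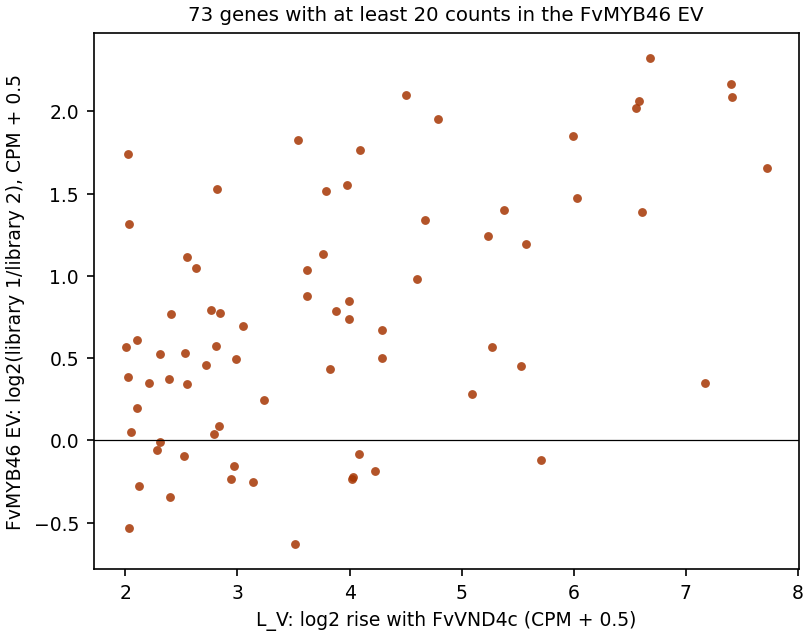
L_V (log2 scale) against the log2 ratio of the FvMYB46 EV libraries (CPM plus 0.5) for the 73 genes with at least 20 counts in both together, each point a gene. The ratio tends to be higher at larger L_V (Pearson's r 0.54).

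The members were spread over all 7 chromosomes. Chromosome 6 held 28 of them (24.1%) and chromosome 3 held 23 (19.8%), compared with 18.9% and 15.9% of all genes tested. Chromosomes 1 and 4 held 9 (7.76%) and 10 (8.62%), compared with 11.5% and 13.1%. Chromosomes 2, 5 and 7 held 14.7%, 14.7% and 10.3%, compared with 14.8%, 14.0% and 11.8%. The median gene span was 2626 bp, from 299 to 15222 bp, and that of all genes tested was 3221 bp. Of the members, 44.0% were on the plus strand, compared with 50.1% of all genes tested. An identifier that does not end in 0 was held by 4 members (3.45%), compared with 13.0% of all genes tested. These shares are given as a description with no test.

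Members lay next to another member in the gene order in 3 places, each a pair on opposite strands. FvH4_1g00680, from 351693 to 355199 of chromosome 1, shares 747 bp with FvH4_1g00670. It rose much less than its neighbour, from 4.33 and 5.30 to 30.2 and 29.8 CPM with FvVND4c and from 4.62 and 4.98 to 21.7 and 20.9 CPM with FvMYB46. FvH4_6g46480, from 35450237 to 35452361 of chromosome 6, shares 667 bp with FvH4_6g46470, from 35446530 to 35450903. The latter reached 244 and 229 CPM with FvVND4c and 45.1 and 45.8 CPM with FvMYB46, and the former 17.9 and 8.09 CPM and 4.74 and 4.66 CPM. Whether reads were counted by strand is not given, and reads from the shared stretch cannot be assigned to 1 gene of these pairs, and the values of the weaker genes are uncertain. The third pair, FvH4_6g38150 (30190834 to 30195031 of chromosome 6) and FvH4_6g38160, does not overlap. FvH4_6g38150 rose from 2.16 and 2.52 to 12.9 and 10.9 CPM with FvVND4c and from 0.942 and 1.25 to 15.9 and 16.8 CPM with FvMYB46. Both genes of this pair responded more to FvMYB46 (log2 difference 1.42 for FvH4_6g38150, standard error 0.34, adjusted p = 0.0187 from edgeR). Altogether 23 members (19.8%) overlapped another gene, compared with 14.3% of all genes tested. Of the 20 overlapped genes outside the set, 19 had both L_V and L_M under 1.

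At the threshold the set has no gap. The members just inside were FvH4_3g42500, with L_V 2.00 and L_M 4.11, and FvH4_5g16970, with L_V 2.00 and L_M 4.57. Just outside were FvH4_3g11330, with L_V 1.998 and L_M 2.38, and FvH4_2g38540, with L_V 6.83 and L_M 1.98. FvH4_2g38540 reached 66.2 and 77.6 CPM with FvVND4c but at most 2.04 CPM with FvMYB46. FvH4_3g42500 reached 2.06 and 2.36 CPM with FvVND4c and 10.1 and 10.5 CPM with FvMYB46. It had only 4 counts in FvVND4c EV and 3 in FvMYB46 EV, and the difference between its responses did not pass the test (log2 difference 2.58, standard error 0.96, adjusted p = 0.102 from edgeR). When each library was left out in turn, 86 members met the rule every time. Another 24 fell under the fold threshold at least once, all with a smaller value of at most 2.53, and 6 fell to 3 or fewer empty-vector counts. With the empty vectors exchanged between the experiments, 99 of the 116 members met the rule, and 109 did so when both constructs were compared with the 4 empty-vector libraries together.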

How the data were processed

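RNA-seq was made from *F. vesca* fruit. The study describes biological triplicates, and 2 libraries in each of 4 groups were analysed here, with 9765362 to 12845942 counts each. The deposited counts are whole numbers of reads per gene, made by the authors with fastp 0.20.1, HISAT2 2.2.1 on the *F. vesca* v4.0.a2 genome, SAMtools 1.9, which dropped PCR duplicates, and lastly featureCounts 2.0.3. The deposited TPM values, which the authors computed for 17698 genes, were used only to check that all 116 members are among them. Gene lengths in the files equal the whole span for all 34009 genes, so a level per kb includes introns. Coordinates are those of the files.

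Members and lists were chosen with earlier results of these data known. Differences were tested with edgeR 4.0.16 in R 4.3.3, with filterByExpr and TMM scaling, by its quasi-likelihood F test on 8 libraries in 4 groups with no covariate. It kept 18766 genes (55.2%). A call needed an absolute log2 value over 1 and a Benjamini-Hochberg adjusted p below 0.05. The standard error was taken as the size of the log2 value over the square root of F, which is approximate. The test was checked on simulated counts, with changes set only in FvMYB46 OX and in genes with more than a few empty-vector counts. The check therefore does not cover members with few empty-vector counts. With 2 libraries against 2, no permutation test of a single gene can reach p = 0.05. Named genes are the 6 with the largest smaller value of L_V and L_M, the 4 largest called differences each way, the 4 highest levels, the 2 on either side of the threshold, neighbouring members, and the 2 largest called empty-vector differences each way. Alternatives were other settings of the rule, DESeq2 1.42.0, RLE scaling, no filter, no fold threshold, the replicate number as a block, fits on 4 libraries, and leaving out each library. No sequence is shown, as no genome of this build was used here.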

Additional observations from a re-analysis of the deposited data

Results flagged for a closer look

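The responses to the constructs differed by the test of their difference in 34 members. Of the 116 members, 18 (15.5%) responded more to FvMYB46 and 16 (13.8%) more to FvVND4c, compared with 5.86% and 3.77% of all genes tested. Members were chosen for large responses in these libraries, so the shares are not read as a trait of the set. Both counts, and which of them was larger, changed when single libraries were left out. The fitted log2 difference, FvMYB46 minus FvVND4c, was 7.38 for FvH4_6g38160, 4.95 for FvH4_7g07750, 4.81 for FvH4_1g19960 and 3.82 for FvH4_3g28890. It was -5.00 for FvH4_5g32940, -4.23 for FvH4_7g28760, -2.91 for FvH4_6g41290 and -2.25 for FvH4_5g21990. Of these genes, FvH4_3g28890, FvH4_7g28760 and FvH4_6g41290 lost the call in at least 1 alternative, and the other 5 kept it in all that were run.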

How the results depend on the processing

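The set had 116 genes, 186 at a log2 threshold of 1.5 and 84 at 2.5, and 105 to 119 when each library was left out in turn. It also depended on the constant added to the mean CPM. With a constant of 0.1 CPM, 150 genes met the rule, all 116 members among them. With a constant of 1 CPM, only 93 genes met it, all of them members, and the other members were lost. All 116 members were called higher with each construct in every alternative that kept both libraries of the groups compared. In the main fit, 4.17% of all genes tested were called higher with FvVND4c and 10.1% with FvMYB46. The rule used these same comparisons, so nothing is read from the members' count in any setting. The number with a larger response to FvMYB46 was 8 to 30 without 1 library and 13 to 19 in the other alternatives, and the number with a larger response to FvVND4c was 6 to 24 and 12 to 19. Between the empty vectors, the number of higher members was 0 to 7 and that of lower members 1 to 21 without 1 library, and the number of lower members was 1 with the 4 empty-vector libraries fitted alone. No named difference changed its sign. With the replicate number as a block, 19 members responded more to FvMYB46, 19 more to FvVND4c, 1 was higher and 5 were lower in FvMYB46 EV, and 116 were called with each construct. Labels give no meaning to the number, and same-numbered libraries had correlations of their deviations across genes of 0.0989 to 0.195. Depth limits the empty-vector side, where 1 count is about 0.1 CPM and the members with 1 to 3 counts have folds known only within wide counting intervals.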
